A study of Mus musculus with 4 samples.

Results

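The comparison described here sets CsAYTE-induced PCBs against the Flk1+ MPCs they were made from, with 1 array for each population, 2 of the 4 arrays in the series, so every difference below is a ratio between 2 arrays and no test could be run. Flk1+ MPCs are mesodermal precursor cells sorted for Flk1 at day 4.5 from EMG7 mouse embryonic stem cells, a line that carries GFP under the αMHC promoter, after induction on gelatin without LIF. PCBs, the cardiac precursors that carry PDGFRα and lack Flk1, were sorted at day 5.5 after the MPCs had been kept on mitomycin-treated OP9 cells, a mouse bone marrow stromal line, with CsAYTE, a mixture of Cyclosporin A with Y27632, an inhibitor of ROCK, Trolox, an antioxidant, and EW7197, an inhibitor of the TGFβ receptor ALK5. Day, CsAYTE, the OP9 layer and the sort gate changed together between the 2 arrays, and their parts cannot be told apart. The other arrays are given as levels only: sfPCBs, which formed by day 5.5 without CsAYTE, and M+CMs, day 10.5 cardiomyocytes sorted for GFP under the αMHC promoter. The cell line, the use of CsAYTE, the OP9 layer and the sort gates are those the study describes. The labels of the arrays give only the population and the day.

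Mesoderm that will form the heart leaves the primitive streak under Wnt, Nodal and FGF signals, with T, Eomes and Mesp1 active for a short time. The cells then switch on a core of cardiac transcription factors, among them Nkx2-5, Isl1, Tbx5, Hand2, Mef2c and the SRF cofactor Myocd, and these factors drive the genes of the contractile apparatus. Flk1, the product of Kdr, marks early mesoderm that still gives blood, endothelium and heart, whereas PDGFRα stays on the cardiac and other mesenchymal progeny.

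The spots carry RefSeq transcript identifiers, and these named 20885 genes on the array, 1 probe for each gene. A gene had a ratio when its probe was well above background in at least 1 of the 2 arrays, which held for 17082 genes (15473 in both arrays, 770 in PCBs only and 839 in Flk1+ MPCs only). Signals are Feature Extraction's processed intensities after each array was scaled to a common 75th percentile of 2198, and they are compared only within a probe. Where the dimmer array did not detect a probe, the ratio is a lower bound, written "at least". Where a gene is given a pair of signals, the first is that of Flk1+ MPCs and the second that of PCBs. The ± beside a log2 ratio is the error that the scanner software gives for the spots, with a median of 0.20, and it leaves out any spread between cultures. Genes at least 4-fold apart were counted: 1131 were higher in PCBs (6.62% of genes with a ratio) and 643 were lower (3.76%). The ratio of the median gene was -0.18 on the log2 scale, 12830 genes (75.11%) stayed within 2-fold, and the 5th and 95th percentiles were -1.68 and 2.48. The difference was at least 16-fold for 373 genes higher in PCBs and 147 lower, and at least 100-fold for 92 and 24.

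**Figure D1:**
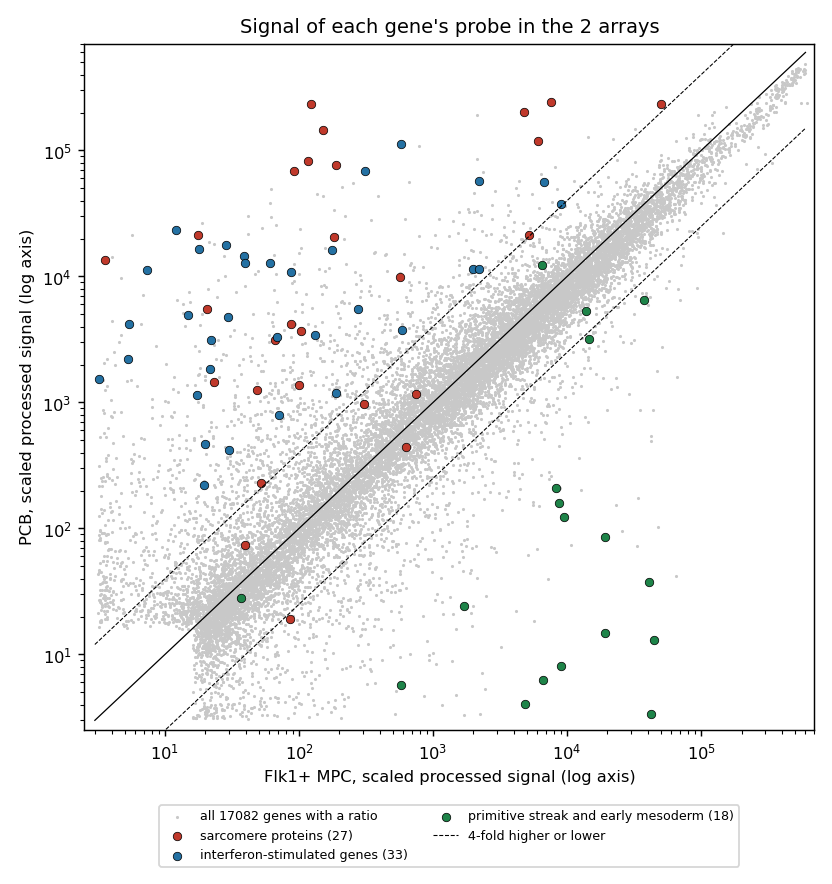
Scaled processed signal of each gene's probe in the Flk1+ MPC array (x axis, log scale) against the PCB array (y axis, log scale), with 1 point for each of the 17082 genes with a ratio, a solid line at equal signals and dashed lines at 4-fold. Interferon-stimulated genes (33) all lie above the upper dashed line, as do 22 of 27 sarcomere genes, while 15 of 18 streak and early mesoderm genes lie below the lower one.

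The genes used for the sorts were looked at first, as a check of the labels and not as results. Pdgfra read 7237 in Flk1+ MPCs and 9136 in PCBs, so its transcript was already present before the change to PCBs. Kdr had 2 probes that disagreed. The probe with the higher mean log2 signal, which stands for the gene here, read 11263 in Flk1+ MPCs and 7272 in PCBs and was also near this level in sfPCBs (6661) and M+CMs (7499). The other Kdr probe read 54864 in Flk1+ MPCs and 768 in PCBs, a log2 ratio of -6.16, and 4559 and 2126 in sfPCBs and M+CMs. Of the 6 markers set for Flk1+ mesoderm, 5 were at least 4-fold lower in PCBs when Kdr was read by its first probe, and all 6 were when it was read by the other. Of the cardiac precursor markers, 6 of 7 were at least 4-fold higher, all but Pdgfra. Over all genes with a ratio, 3.76% were at least 4-fold lower and 6.62% at least 4-fold higher.

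Genes of the primitive streak had the lowest median of all lists. Of 18 streak and early mesoderm genes, 15 were at least 4-fold lower in PCBs (83.33%, against 3.76% of all genes), none was higher, and the median log2 ratio was -6.20. Mesp1, the factor that marks the first cardiac mesoderm, gave 42204 in Flk1+ MPCs and was not detected in PCBs, which makes it at least 2714-fold lower. The homeobox gene Evx1 was at least 2881-fold lower, with 44790.3 in Flk1+ MPCs, and Gsc, the organizer gene, at least 1241-fold lower, with 19299. T, or brachyury, went from 6554 to an undetected signal (at least 422-fold lower), and the streak gene Mixl1 from 4837 (at least 311-fold lower). These 5 genes were among the 10 with the largest bounds of all genes detected in Flk1+ MPCs only. Mesp2, a close relative of Mesp1, read 1716 and 24.2 (log2 ratio -6.15 ± 0.29), and Tbx6, a T-box gene of the presomitic mesoderm, 8298 and 209.8 (-5.31 ± 0.21, and -2.66 by its other probe). Lhx1 read 9466 and 124 (-6.25 ± 0.21), and the Notch ligand Dll3 19270.0 and 85.9 (-7.81 ± 0.21, and -5.98 by its other probe). Snai1, which drives the epithelial to mesenchymal change at the streak, was still well above background in PCBs, with 37574 against 6509.7 (-2.53 ± 0.20). The 3 members within 4-fold were Msgn1, which was near the limit of detection in both arrays (37.1 and 27.8), Foxh1 (13746 and 5326) and Cited1 (6539 and 12363).

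In the sfPCB array the median of these genes lay between those of Flk1+ MPCs and PCBs. Over the 18 genes the median signal was 9230.0 in Flk1+ MPCs, 32.8 in PCBs, 448 in sfPCBs and 35.9 in M+CMs. Eomes, for example, read 41054 in Flk1+ MPCs, 37.8 in PCBs and 4554 in sfPCBs, and Nodal 8675, 161 and 7382. Thus Nodal in sfPCBs lay near its level in Flk1+ MPCs and far above that of PCBs.

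Pluripotency genes were lower or within 4-fold. Of 16 measured, 9 were at least 4-fold lower (56.25%, against 3.76% of all genes), none was higher, and the median log2 ratio was -2.08. Pou5f1, the gene of Oct4, read 897 in Flk1+ MPCs and was not detected in PCBs (at least 57.7-fold lower). Otx2, a gene of the epiblast and anterior ectoderm, read 41939.9 and 542 (log2 ratio -6.27 ± 0.20), Dppa5a 8781 and 209 (-5.39 ± 0.21), and the nuclear receptor Esrrb 1242 and 66.6 (-4.22 ± 0.22). Dnmt3b, the de novo DNA methyltransferase of the early embryo, was still bright, with 46836 and 10128 (-2.21 ± 0.20). Sox2 was low in both arrays (167 and 217), and Lin28a, an RNA-binding protein of early cells, was high in both (41647 and 20839.5). For Nanog the 2 probes went opposite ways, 194 against 434 by the probe with the higher mean log2 signal and 745 against 20.7 by the other, so that no direction is given. Klf4 was somewhat higher in PCBs (5647 and 13279.6) and stayed under 4-fold.

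Blood and endothelium are the other lineages of Flk1+ mesoderm. Of 24 blood and endothelial genes with a ratio, 8 were at least 4-fold lower (33.33%) and 2 were at least 4-fold higher (8.33%). The shares over all genes were 3.76% and 6.62%, and the median of the list was -1.12. Etv2, the ETS factor at the head of both lineages, read 23066 in Flk1+ MPCs and 153 in PCBs (-7.24 ± 0.21), and its other probe gave -7.22. In sfPCBs its signal was 11262. Tal1, which sets blood fate, read 612 and 56.2 (-3.45 ± 0.23), Runx1 1412 and 230.0 (-2.62 ± 0.21) and the VEGF receptor Flt1 4017 and 263 (-3.93 ± 0.20). Sox17 and Sox7, factors of endothelium and endoderm, were not detected in PCBs and were at least 21.0-fold and 14.3-fold lower. The endothelial markers Pecam1 and Tek were close in the 2 arrays, at 205 and 181 for Pecam1 and 42.4 and 40.4 for Tek. Tie1 was detected in neither, and Cdh5, near background in Flk1+ MPCs at 36.2, was not detected in PCBs. The 2 members that were higher were both embryonic globins. Hbb-bh1 read 182 and 2525 (3.79 ± 0.21), and Hba-x was undetected in Flk1+ MPCs and read 465 in PCBs (at least 29.2-fold higher), while Gata1, the erythroid factor, stayed at 48.1 and 53.5.

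Cardiac transcription factors made up a mixed group, in which those that were higher in PCBs stood beside others already bright in Flk1+ MPCs. All 26 were detected in both arrays. Of these, 13 were at least 4-fold higher in PCBs (50%, against 6.62% of all genes) and 3 lower (11.54%, against 3.76%). The median log2 ratio was 1.85. Myocd had the largest ratio, with 156 in Flk1+ MPCs and 16719 in PCBs (6.74 ± 0.21). Mef2c, the MADS box factor that works with it, was just above background at 19.8 and read 1616 in PCBs (6.35 ± 0.33), and Meis1, a TALE homeobox factor, read 347 and 27911 (6.33 ± 0.20). Nkx2-5 read 657 and 9016 (3.78 ± 0.20), Hand2 1931 and 16168 (3.07 ± 0.20) and Isl1, a factor of the second heart field, 924 and 7023 (2.93 ± 0.20). The atrial factors Nr2f1 and Nr2f2 were higher too, by 2.99 ± 0.20 and 4.12 ± 0.24. Tbx5, a factor of the first heart field, sat at the threshold, with 687 and 2759 (2.01 ± 0.20).

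Gata4, Gata5, Gata6, Srf, Mef2a and Mef2d lay within 4-fold. Gata6 read 13924 and 16617 and Gata4 18271 and 8058, so that both were high before the cells became PCBs. Tbx3, Foxf1 and Hand1 were lower in PCBs. Tbx3, a T-box repressor, read 51182 and 2768 (-4.21 ± 0.20), Foxf1, a forkhead factor of lateral mesoderm, 23147 and 1559.7 (-3.89 ± 0.20) and Hand1 16151 and 4015 (-2.01 ± 0.20). Hand1 and Hand2 are related factors of the heart tube and differed in direction between these arrays. In sfPCBs, Nkx2-5 read 591, Myocd 984 and Tbx5 397, whereas Meis1 read 8813 and Hand2 8537. Thus for Nkx2-5 and Tbx5 the sfPCB signal was no higher than that of Flk1+ MPCs, and for Meis1 and Hand2 it lay between Flk1+ MPCs and PCBs.

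**Figure D2:**
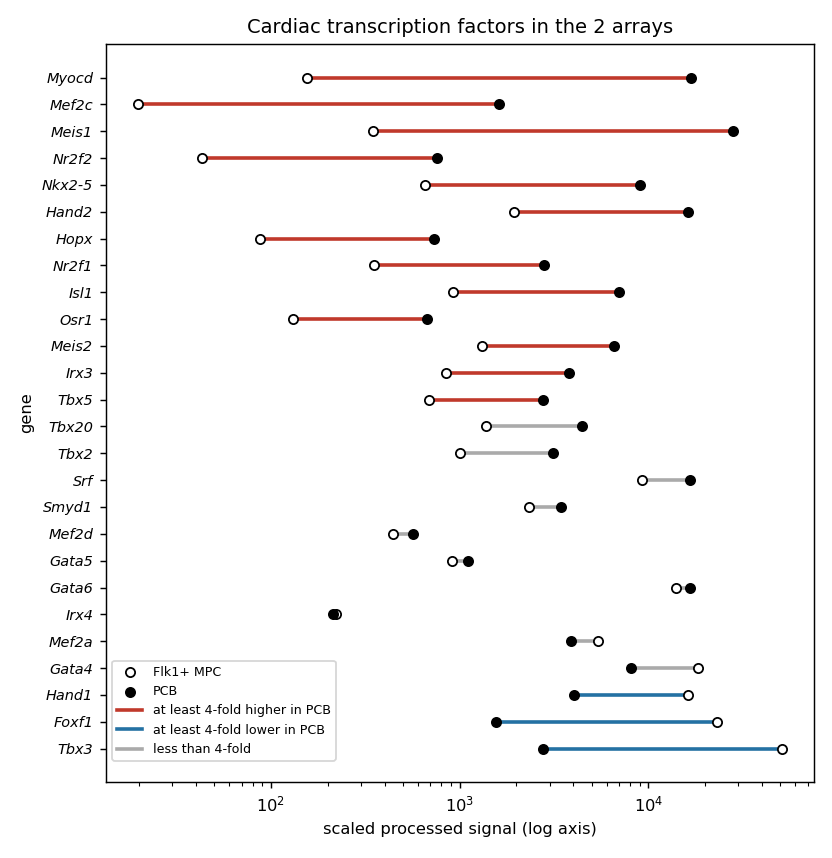
Scaled processed signal (x axis, log scale) of 26 cardiac transcription factors (y axis, ordered by ratio) in Flk1+ MPCs (open points) and PCBs (filled points), 1 array each. The joining line is red for the 13 genes at least 4-fold higher in PCBs, blue for the 3 at least 4-fold lower and grey for the other 10.

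Genes of the sarcomere had the highest ratios of the muscle lists. Of 27 with a ratio, 22 were at least 4-fold higher in PCBs (81.48%, against 6.62% of all genes). Only 1 was lower (3.7%, against 3.76%), and the median log2 ratio was 5.15. The thick filament genes were led by the cardiac myosin heavy chains. Myh6, the αMHC gene, read 116 in Flk1+ MPCs and 82857 in PCBs (9.48 ± 0.21). The other Myh6 probe was undetected in Flk1+ MPCs and read 457 in PCBs. Myh7, the βMHC gene, reached 235857 in PCBs, close to its 228989.6 in M+CMs. Among the light chains, Myl3 read 92.2 and 68633 (9.54 ± 0.21), and Myl2, the ventricular form, 66.3 and 3149.7 (5.57 ± 0.22). The atrial forms Myl7 and Myl4 were already at 6095 and 7600.1 in Flk1+ MPCs and reached 119771 and 244632, log2 ratios of 4.30 ± 0.20 and 5.01 ± 0.20. Mybpc3, which tethers myosin, and Ttn, the giant spring of the sarcomere, were not detected in Flk1+ MPCs and were at least 1208-fold and 844-fold higher, with 21228 and 13455 in PCBs.

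Thin filament genes followed, with Tnni1, the slow skeletal troponin I of the embryonic heart, at 189.8 and 76569.9 (8.66 ± 0.21) and Tnnc1 at 183 and 20652 (6.82 ± 0.21). Tnni3, the troponin I of the adult heart, was only at 52.5 and 228 (2.12 ± 0.23) and read 105985 in M+CMs. Actc1, cardiac α-actin, read 4786 and 203317 (5.41 ± 0.20). At the Z disc, Ldb3 read 20.6 and 5557 (8.07 ± 0.34), but its other probe gave a ratio of 1.89, under 4-fold, and Csrp3, undetected in Flk1+ MPCs, read 1442 (at least 62.5-fold higher), while Actn2, the α-actinin gene, stayed under 4-fold (305 and 976, 1.68 ± 0.20). Tnnt1, Nebl and Cmya5 were also within 4-fold, and Myom2, a protein of the M band in mature muscle, was the single member at least 4-fold lower, with 85.4 and 19.0. Myoz2 and Lmod2 were detected in neither array. As RNA came from a whole sorted population, more cells with these transcripts and more transcript in each cell cannot be told apart.

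Sequence before the start site is shown for the 2 sarcomere genes with the largest ratio or bound among those that hold a MEF2 core (CTANNNNTAG, its own reverse complement), the site of the factor family that includes Mef2c. The 250 bases before the start are from RefSeq on GRCm38.p6, with the match in capitals: Mybpc3 at chr2:91117894-91118143 on the + strand, and Ttn at chr2:76982548-76982797 on the - strand.
Mybpc3: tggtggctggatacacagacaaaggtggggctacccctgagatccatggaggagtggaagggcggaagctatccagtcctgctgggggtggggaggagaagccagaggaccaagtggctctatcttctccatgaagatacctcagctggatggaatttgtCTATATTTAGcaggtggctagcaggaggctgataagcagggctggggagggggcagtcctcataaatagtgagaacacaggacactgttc
Ttn: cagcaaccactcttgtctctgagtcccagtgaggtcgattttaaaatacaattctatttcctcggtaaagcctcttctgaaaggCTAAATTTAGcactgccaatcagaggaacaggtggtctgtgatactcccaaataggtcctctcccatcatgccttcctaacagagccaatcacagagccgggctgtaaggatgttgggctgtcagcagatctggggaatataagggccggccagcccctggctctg
The match began 90 bases before the start of Mybpc3 and 166 bases before that of Ttn. Full windows ran from 250 bases before to 50 after a start. Of 33 full windows of sarcomere genes, 5 held this core (15.15%, from 4 of 24 genes with a window). The share was 3.69% over 32841 windows of all genes and 3.33% over those of genes with a ratio. For the GATA site AGATAA and the T-box site AGGTGT, each sought on both strands, the shares were 18.18% and 18.18% for sarcomere genes. They were 11.18% and 13.74% for all windows, and 7.81% and 11.96% for windows of genes with a ratio. A match is a string of letters and not a measured binding site.

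Calcium handling genes and heart peptides had a lower median than the sarcomere list. Of 19 with a ratio, 6 were at least 4-fold higher (31.58%, against 6.62% of all genes), none was lower, and the median was 0.83. Ryr2, the release channel of the sarcoplasmic reticulum, read 38.0 and 2224 (5.87 ± 0.24), Hrc, a calcium-binding protein of its lumen, 362 and 15223 (5.40 ± 0.20), and the pump Atp2a2 1825 and 14042 (2.94 ± 0.20), whose other probe gave 1.78, under 4-fold. The pump inhibitor Pln was undetected in Flk1+ MPCs and at least 9.35-fold higher. The peptides Nppa and Nppb remained low, at 182 and 109 in PCBs, and both lay within 4-fold. Gja1, the gap junction protein connexin 43, read 3414 and 1199 (-1.51 ± 0.20).

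Of 10 smooth muscle genes, 4 were at least 4-fold higher (40%, against 6.62% of all genes) and none was lower. Acta2, smooth muscle α-actin and also a gene of the early heart tube, read 2125 and 191818 (6.50 ± 0.20), and Cnn1 3990.2 and 27099 (2.76 ± 0.20). In sfPCBs Acta2 was high too, at 124536, while Cnn1 read 2501. Myh11, the myosin of mature smooth muscle, stayed at 27.1 and 45.8.

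Among 26 genes of mitochondria and energy use, 7 were at least 4-fold higher (26.92%) and 2 were lower (7.69%). The shares over all genes were 6.62% and 3.76%, and the median of the list was -0.12. Ppargc1a, the coactivator of mitochondrial biogenesis, read 19.1 and 927 (5.60 ± 0.33), and Cox6a2, the muscle form of a cytochrome oxidase subunit, 32.8 and 3774 (6.85 ± 0.25). The other Ppargc1a probe was undetected in Flk1+ MPCs and read 55.1 in PCBs, a bound under 4-fold. Cpt1a and Cpt1b, which admit fatty acids to mitochondria, were higher by 4.61 ± 0.22 (2.99 by the other Cpt1a probe) and 3.11 ± 0.20, and the insulin-responsive glucose carrier Slc2a4 by 3.56 ± 0.20. Lower in PCBs were the glycolytic gene Pgk1, with 334955 and 78879 (-2.09 ± 0.20), and the pyruvate dehydrogenase kinase Pdk1, with 3620.3 and 729.6 (-2.31 ± 0.20), whereas Eno3, the muscle enolase, was higher (5139 and 22666, 2.14 ± 0.20). Tfam and Nrf1, which serve the mitochondrial genome, were within 4-fold.

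**Figure D3:**
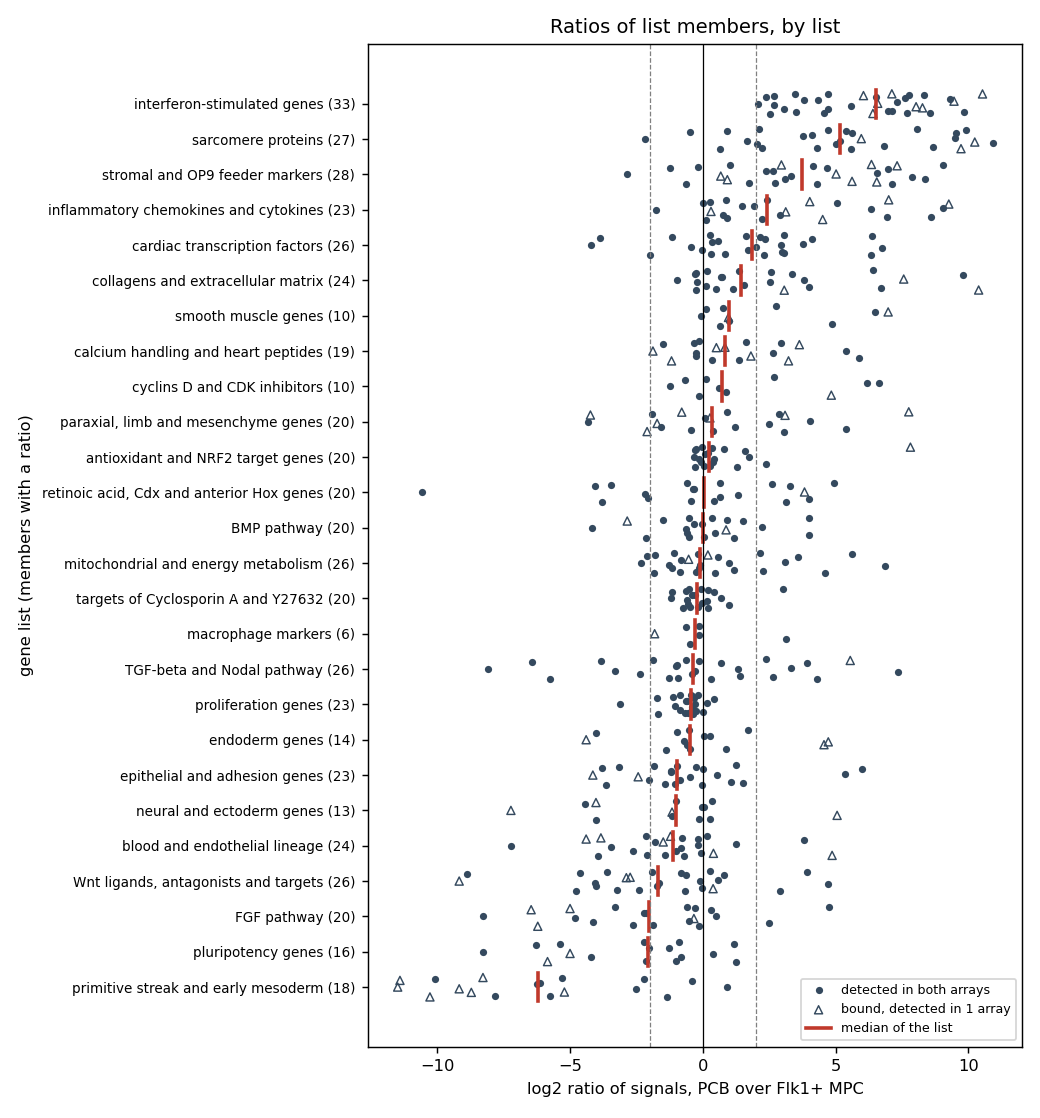
log2 ratio of signals, PCB over Flk1+ MPC (x axis), of the members of 26 gene lists (y axis, ordered by median), with filled points for genes detected in both arrays, open triangles for bounds, red bars for list medians and dashed lines at 4-fold. Interferon-stimulated and sarcomere genes have the highest medians, 6.51 and 5.15, and streak genes the lowest, -6.20.

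Interferon-stimulated genes formed the only list whose members were all at least 4-fold apart in 1 direction. Cells switch them on through a complex that includes STAT2 and IRF9 after type I interferon. The array named 33 of the 35 members, Mx1 and Mx2 being the exceptions, and all 33 were at least 4-fold higher in PCBs, with log2 ratios from 2.06 to 10.53 and a median of 6.51. Of the 25 genes with the largest ratios among those detected in both arrays, 4 were in this list (Oasl1, Oas2, Oasl2 and Cxcl10). Ifit3, of a family that acts on viral RNA, was undetected in Flk1+ MPCs and read 23583 in PCBs (at least 1479-fold higher), and Ifit1 read 11209.9 (at least 703-fold higher). Isg15, the ubiquitin-like modifier, read 580.5 and 113168 (7.61 ± 0.20), Oas2, an RNA-sensing synthetase, 28.4 and 17921 (9.30 ± 0.28) and Irf7 22.1 and 3115 (7.14 ± 0.31). The RNA sensors Ddx58 and Ifih1 were higher by 6.51 ± 0.21 and 7.33 ± 0.26. Irf9 and Stat2 had ratios in the lower part of the list, 2.52 ± 0.20 and 2.38 ± 0.20, and Usp18, a brake on the pathway, had the smallest ratio of the list (2.06 ± 0.20). Rtp4, Phf11d, Apol9b and Ifi204, further genes known to respond to interferon, stood outside the list and had ratios of 9.31 ± 0.22, 9.61 ± 0.30, 9.50 ± 0.25 and at least 894-fold.

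Ifit3 and Ifit1 had the largest ratios or bounds among list members whose window holds the interferon-stimulated response element core (GAAANNGAAA on either strand). The sequences before their starts are shown, and both hold the core at 2 places. They are from RefSeq on GRCm38.p6, with the matches in capitals as they read on the opposite strand: Ifit3 at chr19:34583279-34583528 and Ifit1 at chr19:34640639-34640888, both on the + strand.
Ifit3: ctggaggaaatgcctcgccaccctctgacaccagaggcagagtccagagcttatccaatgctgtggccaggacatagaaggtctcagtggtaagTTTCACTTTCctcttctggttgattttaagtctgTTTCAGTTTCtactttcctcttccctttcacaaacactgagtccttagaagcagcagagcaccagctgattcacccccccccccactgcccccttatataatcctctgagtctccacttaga
Ifit1: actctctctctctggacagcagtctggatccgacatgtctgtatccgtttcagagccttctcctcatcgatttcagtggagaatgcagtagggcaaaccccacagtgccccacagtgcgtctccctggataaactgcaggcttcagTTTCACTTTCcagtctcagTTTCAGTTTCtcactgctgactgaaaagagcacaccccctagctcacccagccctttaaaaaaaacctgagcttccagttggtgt
The matches began 156 and 122 bases before the start of Ifit3 and 104 and 85 bases before that of Ifit1. In full windows, the core was found in 16 of 31 windows of interferon-stimulated genes (51.61%, from 15 of 27 genes with a window), against 3.44% of all 32841 windows. It was found in 7.71% of 1089 windows of genes at least 4-fold higher in PCBs, in 1.66% of 601 windows of genes at least 4-fold lower, and in 3.12% of 16866 windows of all genes with a ratio. The interferon list itself is part of the genes that were higher.

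**Figure D4:**
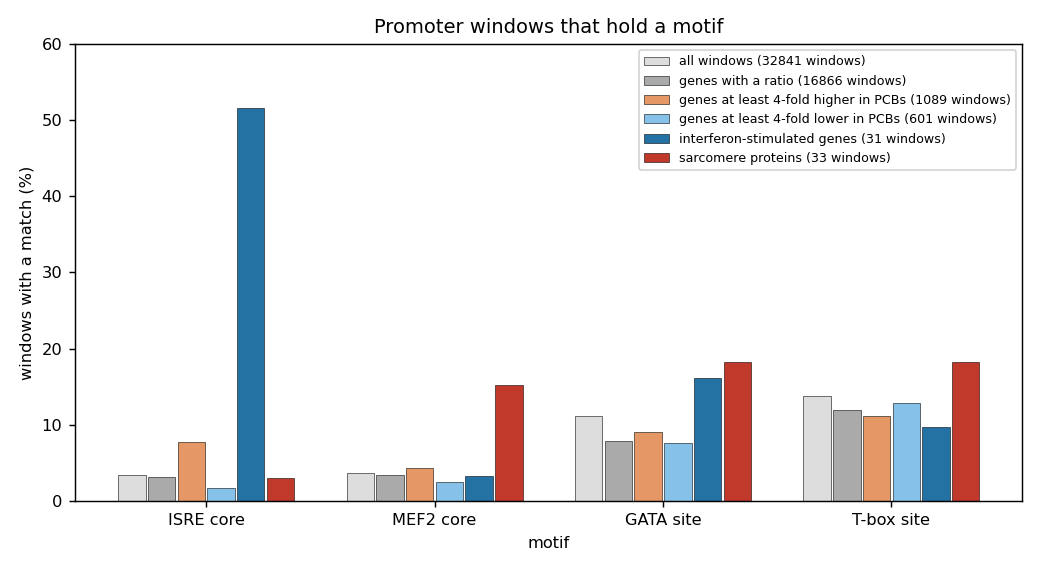
Share of RefSeq promoter windows (y axis, percent) that hold each of 4 motifs (x axis) on either strand, for all windows, windows of genes with a ratio, of genes at least 4-fold higher or lower in PCBs, and of the interferon-stimulated and sarcomere lists. The interferon-stimulated response element core stands at 51.61% in the interferon list and the MEF2 core at 15.15% in the sarcomere list, against 3.44% and 3.69% of all windows.

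The interferon-stimulated genes were as high in the array of sfPCBs, which had not received CsAYTE, and low in that of M+CMs. Their median signal was 39.7 in Flk1+ MPCs, 5533 in PCBs, 6950 in sfPCBs and 119 in M+CMs. The sarcomere list ran otherwise, with 116, 9940, 192 and 105985 in the same order. Ifit3 read 24364 in sfPCBs and Myh6 128.

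Of 23 inflammatory genes with a ratio, 13 were at least 4-fold higher in PCBs (56.52%, against 6.62% of all genes). None was lower, and the median was 2.42. The monocyte attractants Ccl2 and Ccl7 read 14457 and 9784 in PCBs, against 27.7 for Ccl2 and no detected signal for Ccl7 in Flk1+ MPCs, log2 ratios of 9.03 ± 0.28 and at least 9.26. Cxcl1, a neutrophil attractant, read 24.8 and 9437 (8.57 ± 0.29). Il6 was undetected in Flk1+ MPCs and read 2038 in PCBs (at least 128-fold higher), and Ptgs2, the inducible cyclooxygenase, read 19.9 and 1617 (6.34 ± 0.33). Il1b, Csf3, Ccl11 and Ccl20 were detected in neither array, and Icam1 and Lcn2 lay within 2-fold. In sfPCBs Ccl2 read 20588 and Il6 643, and in M+CMs Ccl2 read 108 and Il6 was not detected.

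Markers of stroma, a list chosen for the OP9 layer, were high in the same arrays as these genes. Of 28 with a ratio, 20 were at least 4-fold higher in PCBs (71.43%, against 6.62% of all genes) and 1 lower (3.57%, against 3.76%). The median was 3.74. Col1a2 read 779.9 and 109298 (7.13 ± 0.20), Col1a1 1110.2 and 28385 (4.68 ± 0.20) and Col3a1 25.1 and 3119.6 (6.96 ± 0.28). The fat cell genes Fabp4, Pparg and Cebpa were higher by 7.86 ± 0.21, 3.09 ± 0.20 and 6.56 ± 0.35, and Ly6a, the Sca-1 antigen, read 41.3 and 21679 (9.03 ± 0.23). Other stromal genes were low or absent in PCBs: Postn, or periostin, was undetected, Lum and Dcn read 30.2 and 124, and Thy1 was lower (1065 and 147, -2.86 ± 0.21). In sfPCBs, Postn, Lum and Dcn read 12883, 8782 and 3794. The summed signal of all 30 genes in the list was 55494 in Flk1+ MPCs, 293798 in PCBs, 494088 in sfPCBs and 44769 in M+CMs, so the interferon, inflammatory and stromal lists were high in the same pair of arrays, and the part of OP9 cells in any of these results was not tested. Of 6 macrophage genes with a ratio, Aif1 was at least 4-fold higher (45.3 and 400.5), and the defining markers Ptprc (31.6 and 28.6), Adgre1 (50 and 36.1) and Csf1r (1684 and 1522) lay within 2-fold.

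**Figure D5:**
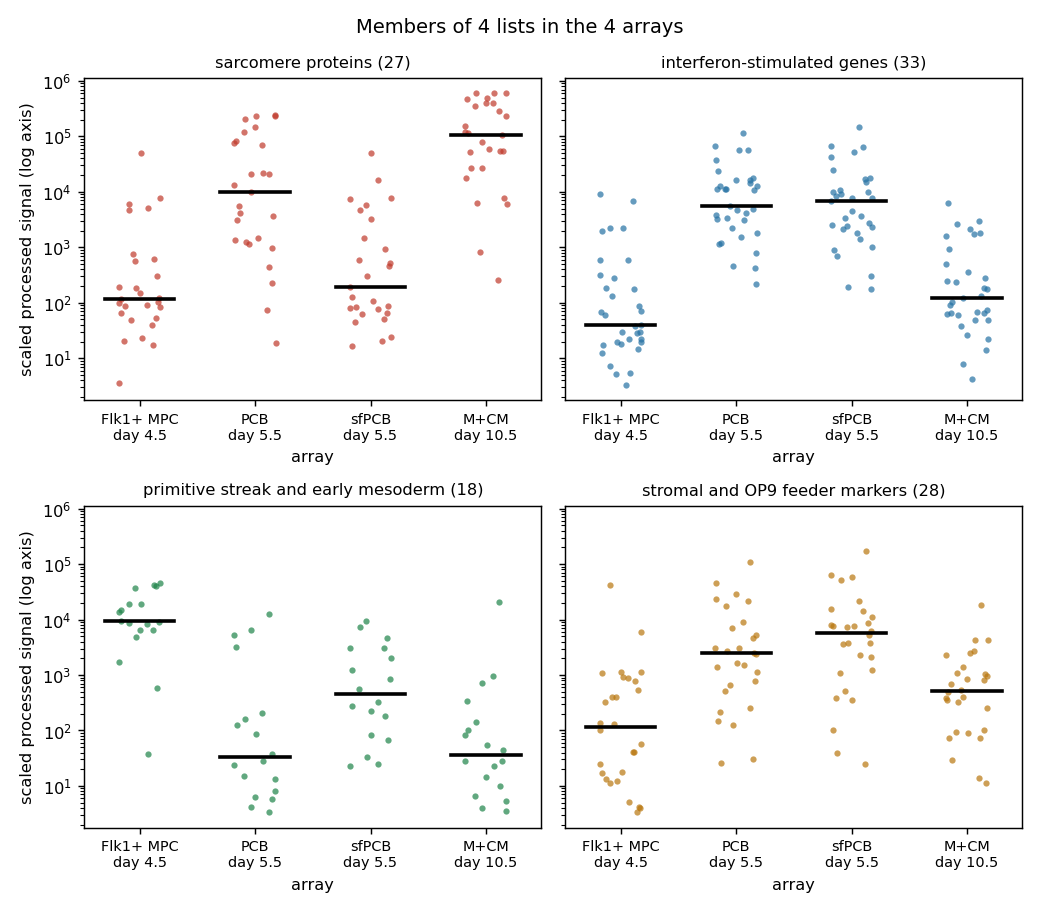
Scaled processed signal (y axis, log scale) of the members of 4 lists in the 4 arrays (x axis), 1 point for each gene with a ratio and a bar at the median of the list. Interferon-stimulated and stromal genes are high in PCBs and sfPCBs, sarcomere genes in PCBs and M+CMs, and streak genes in Flk1+ MPCs.

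Of 24 collagen and matrix genes, 11 were at least 4-fold higher in PCBs (45.83%, against 6.62% of all genes). None was lower, and the median was 1.45. All 3 chains of collagen VI were among them, with Col6a1 at 661 and 56014 (6.41 ± 0.20) and Col6a2 at 99.7 and 10483 (6.72 ± 0.21), beside Col6a3. Spp1, or osteopontin, and Thbs2 were undetected in Flk1+ MPCs and at least 1338-fold and 189-fold higher. In sfPCBs Spp1 read 41107, Thbs2 2429 and Col6a1 32434. The median signal of the list was 1521 in Flk1+ MPCs, 9388 in PCBs, 16376 in sfPCBs and 1207 in M+CMs. The part of OP9 cells in this was not tested. The basement membrane genes Col4a1, Col4a2, Lama1 and Lamb1 lay within 2-fold, and Fn1, fibronectin, was bright in both arrays at 314178 and 161970.1.

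Of 26 Wnt ligands, antagonists and targets with a ratio, 11 were at least 4-fold lower in PCBs (42.31%, against 3.76% of all genes). At least 4-fold higher were 3 (11.54%, against 6.62%), and the median was -1.69. Among ligands, Wnt3 was undetected in PCBs (at least 578-fold lower) and Wnt5b read 21240.1 and 1285 (-4.05 ± 0.20), while Wnt5a and Wnt11 were within 2-fold and Wnt2, a ligand of the posterior heart field, was higher (287 and 2151, 2.91 ± 0.20). Among targets of β-catenin, Axin2 read 4012 and 330.4 (-3.60 ± 0.20, and -2.51 by its other probe), Nkd1 12774 and 1346 (-3.25 ± 0.20) and Lgr5 1384 and 50 (-4.79 ± 0.23). The secreted antagonists split, with Dkk1 lower (28991 and 1160.2, -4.64 ± 0.20) and Sfrp5, a marker of the venous pole, higher (288 and 7646, 4.73 ± 0.20).

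In the TGFβ and Nodal pathway, of 26 genes, 6 were at least 4-fold lower (23.08%) and 7 were higher (26.92%). The shares over all genes were 3.76% and 6.62%, and the median of the list was -0.36. Nodal read 8675 and 161 (-5.76 ± 0.21) and its antagonist Lefty2 25874 and 95.7 (-8.08 ± 0.21). The ligands Tgfb2 and Tgfb3 were higher, by 3.94 ± 0.20 and 3.31 ± 0.21, and Tgfb1 was lower (-2.37 ± 0.20). The receptors Tgfbr1, the ALK5 gene, and Tgfbr2 were within 4-fold, as were Smad2, Smad3 and the feedback genes Smad7, Skil and Pmepa1, all 3 of which read lower in PCBs (-0.97 ± 0.20, -1.89 ± 0.20 and -1.01 ± 0.20).

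Of 20 genes of the BMP pathway, 3 were higher at 4-fold (15%, against 6.62% of all genes) and 3 lower (15%, against 3.76%). The median was 0.01. The ligand Bmp4 was bright in both arrays (99348 and 63449). Genes that BMP induces lay in both directions, with Id2 at 2026 and 32427 and Msx1 at 23706 and 1326 (-4.16 ± 0.20).

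Of 20 FGF genes, 10 were at least 4-fold lower (50%, against 3.76% of all genes) and 2 higher (10%, against 6.62%). The median was -2.01. Fgf3 and Fgf15 were undetected in PCBs and at least 74.4-fold and 88.4-fold lower, and Fgf8 read 14691 and 3189 (-2.20 ± 0.20). Spry4, Etv4 and Etv5, which report FGF signalling, were lower (-4.83 ± 0.22, -4.14 ± 0.20 and -2.64 ± 0.20), whereas Dusp6 held at 27652 and 22754. Fgf7, a ligand made by mesenchyme, was higher (111 and 2965, 4.73 ± 0.21). The receptor Fgfr1 was high in both arrays.

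Of 20 genes of retinoic acid and axial position, 6 were at least 4-fold higher and 6 lower. Each was 30%, against 6.62% and 3.76% of all genes. The caudal factors Cdx1 and Cdx2 were lower (-4.07 ± 0.25 and -3.81 ± 0.35), while Hox genes lay in both directions. Higher were Hoxa3 at 33.0 and 999 (4.92 ± 0.28), Hoxb4 at 433 and 2642 (2.61 ± 0.20) and Hoxa5, by at least 14.2-fold. Hoxb1 was lower (410.3 and 90.6, -2.18 ± 0.21), and Hoxb2 lay within 4-fold. Rarb and Dhrs3, which respond to retinoic acid, were higher by 3.98 ± 0.21 and 3.28 ± 0.20. Aldh1a2, which makes it, was lower (396 and 35.8, -3.47 ± 0.25). Cyp26a1, also of the retinoic acid genes, went the same way as Aldh1a2 and had the lowest ratio of the list.

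Of 23 proliferation genes, 22 lay within 4-fold and 1 was lower (4.35%, against 3.76% of all genes), with a median of -0.46 against -0.18 for all genes. The summed signal of the list was 822298 in Flk1+ MPCs and 555873 in PCBs. Mycn, Bub1, which serves the spindle checkpoint, and the replication helicase subunit Mcm2 had log2 ratios of -1.74 ± 0.20, -1.67 ± 0.20 and -1.12 ± 0.20. Others lay nearer to equality, where Mki67 read 36048 and 32058, Birc5 75032 and 75041 and Cdk1 14658 and 12155, while in M+CMs they read 3799.7, 5695 and 799. Myc was the member at least 4-fold lower, at 9634 in Flk1+ MPCs and a log2 ratio of -3.12 ± 0.20. Of 10 cyclins D and CDK inhibitors, 4 were at least 4-fold higher (40%, against 6.62% of all genes), all of them inhibitors. Cdkn2a and Cdkn2b, neighbours in the genome that restrain CDK4 and CDK6, read 44.8 and 3220.0 (6.17 ± 0.24) and 92.4 and 9129.8 (6.63 ± 0.21), and both were as high in sfPCBs (4161 and 7987) and low in M+CMs (45.8 and 164). The OP9 markers were high in the same pair of arrays, and their part in this was not tested.

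Cyclophilins bind Cyclosporin A, which blocks calcineurin and with it NFAT, and the ROCK kinases are the targets of Y27632. Of 20 genes of these groups, 19 were within 4-fold and 1 was at least 4-fold higher, or 5%, close to the 6.62% of all genes. Ppia, the main cyclophilin, read 495036 and 408035, Rock1 1345 and 1328 and Rcan1, a calcineurin target, 2154 and 1531. Rcan2 alone passed, at 109 and 883 (3.02 ± 0.21), and it read 68.8 in sfPCBs and 11617 in M+CMs. Of 20 antioxidant and NRF2 target genes, 18 were within 4-fold and 2 were higher (10%, against 6.62% of all genes). Within 4-fold were Hmox1 (6416 and 6066) and Txnrd1 (17881 and 23101). Nqo1 was higher (49.6 and 257, 2.37 ± 0.23), with 315 in sfPCBs. Sod3, the secreted superoxide dismutase, was higher by at least 225-fold and reached 4138, with 6079.8 in sfPCBs.

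Of the 25 genes with the largest ratios among those detected in both arrays, 11 were in none of the lists. Slpi, a secreted inhibitor of proteases, read 61.9 and 49008 (9.63 ± 0.22), Popdc2, a membrane protein of the heart, 52.8 and 24374 (8.85 ± 0.22) and Myh8, the perinatal myosin heavy chain, 61.5 and 29629 (8.91 ± 0.22). In sfPCBs these read 30618, 4209 and 47.5. The other Myh8 probe was undetected in Flk1+ MPCs and read only 160 in PCBs. On the lower side, 13 of the 25 genes were in none of the lists. Six2, a homeobox factor, read 33554 and 175 (-7.58 ± 0.21), Cxcr4, the receptor of Cxcl12, 4152 and 22.1 (-7.55 ± 0.30) and Car2, a carbonic anhydrase, 42031 and 497 (-6.40 ± 0.20). The ligand Cxcl12 itself was higher in PCBs (893 and 8915, 3.32 ± 0.20), with a ratio of 6.72 by its other probe, and stood among the stromal markers.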

How the data were processed

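RNA from each of 4 sorted mouse populations was labelled with 1 dye and run on 1 Agilent array. The files that the authors deposited hold spot intensities, with the background subtracted and an error estimated by Feature Extraction 11.5.1.1, and a table of log2 processed signals that was not scaled between arrays. The array design is on mm9 per the file headers.

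Control spots and spots flagged as outliers were left out (126 in PCBs, 135 in Flk1+ MPCs), and no spot was saturated. Scaling brought the 75th percentile of the non-control spots to 1 value in all arrays, and repeated probes were averaged in log2 (median SD between repeated spots 0.056 in both arrays). A probe was detected where at least 0.5 of its spots were well above background. The number of arrays, 1 for each population, limits the precision. RefSeq identifiers of 27508 of 29149 probes (94.37%) matched a gene of the RefSeq table on GRCm38.p6, and the probe with the highest mean log2 signal over the 2 arrays stood for its gene. A bound set the brighter signal over the higher of the probe's own dim signal and the lowest detected signal of the dim array (15.5 in PCBs, 15.9 in Flk1+ MPCs). No offset was added.

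Named genes were the 25 largest ratios in each direction among curated mRNAs detected in both arrays, the 10 largest bounds in each direction, up to 6 members of each list, the genes the study sorted on or measured by PCR, and cell type markers; further list members, chosen after their values were seen, are given where a list is described. The members and lists were chosen with earlier results of these data known. Alternatives changed the scaling, background correction, detection filter, offset, probe rule and fold threshold. Python 3.11.15, numpy 2.4.6, pandas 2.3.3 and matplotlib 3.10.9 were used, with R 4.3.3 and limma 3.58.1 for quantile normalization and normexp.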

Additional observations from a re-analysis of the deposited data

Results flagged for a closer look

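Probes without a RefSeq identifier were not used in the comparisons by gene, and signals appeared among them too. Of 7219 such probes with a ratio, 202 were at least 4-fold higher in PCBs (2.8%) and 89 were at least 4-fold lower (1.23%). The transcripts behind them were not named here. Both shares lay below those of named genes, 6.62% and 3.76%.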

How the results depend on the processing

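With 1 array for each population, the ratios carry no estimate of the spread between cultures, and signals near background limit the ratios of dim genes. No paired analysis was possible because each group holds 1 array and no test was run. The 1131 genes at least 4-fold higher and 643 lower became 751 and 375 after normexp with an offset of 50 and quantile normalization, and 817 and 416 with an offset of 50 alone, which shrinks ratios of dim signals by construction. At 2-fold they were 2252 and 2000, and at 30-fold 229 and 77. Under quantile normalization, no scaling, detection in both arrays, no detection filter, the mean of all probes and the deposited value table, counts of genes higher lay between 858 and 1312 and counts of genes lower between 493 and 855, each within 1.5 times. Without scaling the median of all genes moved by 0.18 on the log2 scale, and the share of higher genes among those at least 2-fold apart was 63.71% in place of 52.96%. Leaving out the genes with probes 2-fold apart, chosen after seeing the data, left 1058 and 602. No gene named by the rule and at least 4-fold apart changed its direction under any of these settings. Over all 213 genes named by the rule, ratios moved by more than the error of the spots in 441 cases and by no more in 1636. Ratios of 176 moved after normexp with the offset and quantile normalization, 146 with the offset alone and 33 with the dimmest detected probe. In addition, 75 of 594 counts of list members moved by over 1.5 times, 51 of them by the change of fold threshold.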

Other observations

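Genes of other mesoderm and of the other germ layers were read from lists as well. Of 20 genes of paraxial mesoderm, limb and mesenchyme with a ratio, 7 were at least 4-fold higher in PCBs and 3 were lower. These were 35% and 15%, against 6.62% and 3.76% of all genes. Prrx1, a homeobox factor of mesenchyme, was undetected in Flk1+ MPCs and read 3440.0 in PCBs (at least 216-fold higher), and its relative Prrx2 read 2906 and 48017 (log2 ratio 4.05 ± 0.20). Snai2 read 259.7 and 10894 (5.39 ± 0.21), the opposite direction to Snai1. The somite genes Tcf15 and Meox1 were lower, Tcf15 at 1186 and 59.4 (-4.32 ± 0.22) and Meox1 at least 18.8-fold. Of 14 endoderm genes with a ratio, 2 were higher (14.29%, against 6.62% of all genes) and 2 lower (14.29%, against 3.76%). Foxa2 read 924 and 56.9 (-4.02 ± 0.22), and Sox17 was given with the endothelial genes. Afp, the fetal albumin relative, was undetected in Flk1+ MPCs and at least 23.6-fold higher, and Cubn was at least 26.4-fold higher. Of 13 neural and ectoderm genes, Zic1 was lower (-4.43 ± 0.21), and so were Zic2 and Sox3, by at least 150.0-fold and 16.3-fold. Pax6 was undetected in Flk1+ MPCs, read 530.1 in PCBs and 1056 in M+CMs, and was undetected in sfPCBs. The other Pax6 probe was undetected in Flk1+ MPCs and read 30.8 in PCBs, a bound under 4-fold. Of 23 epithelial and adhesion genes, 6 were lower (26.09%, against 3.76% of all genes) and 2 higher (8.7%, against 6.62%). Cdh1, the epithelial cadherin, was undetected in PCBs (at least 17.7-fold lower) and Epcam read 723 and 57.6 (-3.65 ± 0.22). Alcam, an adhesion molecule of the early heart, read 49.2 and 1985 (5.33 ± 0.23) and the integrin Itgb3 64.1 and 4053 (5.98 ± 0.22). Both were also above their Flk1+ MPC level in sfPCBs, Alcam at 1592 and Itgb3 at 1379. The other Itgb3 probe was undetected in Flk1+ MPCs and read 142 in PCBs.

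Several genes far along the ratio were in none of the lists. Higher in PCBs were Sncg (27.8 and 10117), Mgst2, a microsomal glutathione transferase (24.6 and 6915), and Tm4sf1, undetected in Flk1+ MPCs and 6465 in PCBs. Lower were Ptgds, the prostaglandin D synthase (7211 and 39.6), the ephrin receptor Epha1 (10711 and 73.8), Bcl11a, a repressor of globin genes (5147 and 62.1), Egln3, a prolyl hydroxylase that responds to hypoxia (12741 and 203), and the connexin Gjb2 (2432 and undetected). Of 3986 genes with several probes, 438 had probes at least 2-fold apart in ratio, and for 7 the probes lay at least 2-fold from equality in opposite directions, Nanog and H2-Q10 among them.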
